A study of Mus musculus with 9 samples.

Results

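Mouse retinal organoids were compared between differentiation day 23 (DD23) and differentiation day 16 (DD16), with 1 array at each day from each of 3 lines. These were the 3 samples titled dd23 against the 3 titled dd16, which made 6 of the 9 arrays of the series; the remaining 3 arrays, at differentiation day 10 (DD10), entered the fit only to estimate the spread. Organoids are retina-like tissues that form in floating culture, here from mouse ES or iPS cells by the SFEBq method, in which dissociated cells reaggregate without serum. The lines were wild type (WT), a Bhlhb4 knockout (B4KO, the gene being Bhlhe23 in current nomenclature) and an Islet-1 knockout (Isl1KO), and each knockout was meant to leave fewer bipolar cells. The groups were therefore WT, B4KO and Isl1KO organoids at DD16 and WT, B4KO and Isl1KO organoids at DD23, with no drug or other treatment named. Each sample was total RNA of 5 pooled organoids, no line was sampled more than once at a day, and whether a knockout line was a single clone is not known here. All DD16 arrays lay in 1 column of their slides and all DD23 arrays in another, so the day cannot be told apart from the array column. B4KO had a slide of its own, so the B4KO line and its slide cannot be told apart either, while WT and Isl1KO shared a slide.

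The retina is built by dividing progenitor cells that leave the cell cycle in an overlapping order, ganglion, horizontal, amacrine and cone cells first, and rods, bipolar cells and Mueller glia later. A rod or cone precursor then turns on the proteins of phototransduction, grows an outer segment from a modified cilium and builds a ribbon synapse onto bipolar and horizontal cells. Progenitor genes, replication genes and factors of early fates are lost from the tissue as this proceeds.

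On the 6 arrays 57.3% to 67.8% of gene spots were well above background, none was saturated, and repeated spots of a probe within an array differed by a median SD of 0.04 on the log2 scale. Levels below are log2 of the processed intensity over the 75th percentile of the array, in the order WT, B4KO and Isl1KO, and differences are DD23 minus DD16 on that scale, from limma over all genes with its standard error (SE) and n = 3 arrays per day. A difference passed where its Benjamini-Hochberg adjusted p was under 0.05. The spread behind each p is how unequally the lines changed plus noise, since no line was repeated at a day. Retinal markers were present at both days: all 5 progenitor, 4 amacrine, 4 ganglion, 4 Mueller glia and 3 horizontal cell markers were well above background on all 6 arrays. Of 7 bipolar markers, Vsx1 was on none and Grm6 on 2 DD23 arrays. Markers of other types were present too: all 4 pigment epithelium, 3 forebrain and 3 pluripotency markers were on all 6 arrays, as were 2 of 3 each for endothelium and blood, mesenchyme, and oligodendrocyte and crest. Of the 3 microglia markers Aif1 was on none, C1qa on 1 and Cx3cr1 on 3 arrays, and of the 3 lens markers Crybb1 was on none and Cryaa and Crygs on 3 each, while Cdh5 of endothelium was on none.

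Between DD16 and DD23 the organoids gained photoreceptor and synapse genes and lost progenitor and cell division genes in all 3 lines. Of 23594 genes tested, 4553 (19.3%) were higher and 5170 (21.9%) were lower at DD23, of which 1363 and 857 changed by at least 2-fold, and 9721 of the 9723 had the same sign in every line. The median over all genes was 0.01. A further description of the extremes is that 246 genes were well above background on no DD16 array and on all 3 DD23 arrays, against 24 the other way. Genes of either kind met the filter of 3 arrays above background by that day alone. The share of spots above background was also higher at DD23 in every line, and its part in these counts was not tested. It went from 57.3% to 65.6% in WT, 58.2% to 60.5% in B4KO and 65.2% to 67.8% in Isl1KO. In these bulk samples more cells of a type and more RNA per cell cannot be told apart. Within the slide that WT and Isl1KO shared, 3119 genes were higher and 3477 lower.

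Both targeted genes had lower levels at DD23 in every line. Isl1 encodes a LIM homeodomain protein found in bipolar, ganglion and cholinergic amacrine cells and had levels of 1.45, 1.19 and -0.44 at DD16 and -0.05, -0.05 and -1.63 at DD23 (difference -1.31, SE 0.33, adjusted p = 0.0237; probe on mm9 chromosome 13, 117099604 to 117099663). Bhlhe23 encodes a basic helix-loop-helix protein needed by rod bipolar cells and was dim, at -2.82, -4.88 and -4.55 at DD16 and -4.55, -6.64 and -6.56 at DD23, and was well above background on 2 and 1 arrays. Its difference was -1.83 (SE 0.45, adjusted p = 0.0213). Neither gene passed without the WT array at DD16, the B4KO array at DD23 or the Isl1KO array at either day, when Isl1 gave -1.01 to -1.40 and Bhlhe23 -1.54 to -1.97, nor did Isl1 without the WT array at DD23 (-1.47). Where each gene was changed is not stated in the labels, so these probes do not check the knockouts.

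Transcription factors that make photoreceptors rose, and those of rods rose most. Nrl, which sets rod over cone fate, stood at 0.88, 1.76 and 0.99 at DD16 and 5.61, 5.49 and 5.87 at DD23, a 21.8-fold rise (4.45, SE 0.26, adjusted p = 0.000657; probe on mm9 chromosome 14, 56138365 to 56138424). Nr2e3, its target that represses cone genes in rods, went from -2.87, -1.31 and -2.66 to 3.71, 3.31 and 3.91, a 60.7-fold rise (5.92, SE 0.43, adjusted p = 0.000807). The days were far apart for both genes, and B4KO had the highest DD16 level and the lowest DD23 level of each. Crx, the homeodomain activator of rod and cone genes, was already bright at DD16 (5.04, 5.07 and 4.97) and rose 2.87-fold to 6.33, 6.62 and 6.70. Of 16 such factors tested 10 rose and none fell, with a median of 1.32. Samd7 (2.18), Rxrg (1.43), Neurod1 (1.42), Prdm1 (1.39), Sall3 (1.38), Mef2d (1.26) and Otx2 (0.73) also rose, though Prdm1 did not pass on leaving out any 1 of 6 arrays (1.15 to 1.58), those being all but the 2 DD10 arrays of WT and B4KO and the DD23 array of B4KO. Rorb (-0.14, SE 0.32), Thrb (-0.05, SE 0.22) and Onecut1 (-0.77, SE 0.25) were among the 6 that did not pass, and Onecut1 passed without the DD10 array of WT or of B4KO. Onecut1 also passed as a fall under several other settings. Among them were another background correction, the deposited value table, the mean over probes and the paired fit on 6 arrays (-0.74 to -0.78).

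**Figure D1:**
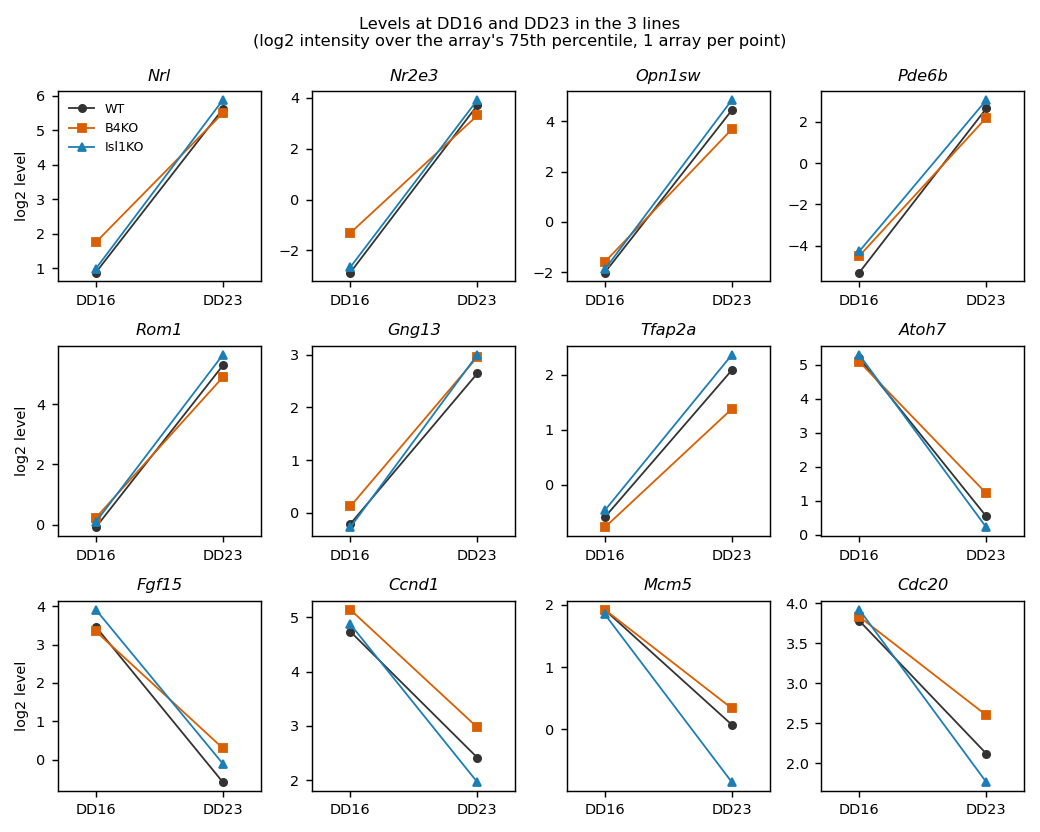
Level of 12 genes at DD16 and DD23, as log2 intensity over the 75th percentile of the array (y axis), with 1 array per point and a line joining the arrays of WT (circles), B4KO (squares) and Isl1KO (triangles). Nrl, Nr2e3, Opn1sw, Pde6b, Rom1, Gng13 and Tfap2a are higher and Atoh7, Fgf15, Ccnd1, Mcm5 and Cdc20 are lower on every DD23 array than on any DD16 array.

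Phototransduction genes of rods and cones made the largest rises of the comparison. In this cascade an opsin activates a G protein, transducin, which activates a phosphodiesterase that lowers cyclic GMP and closes a channel. Pde6b, a catalytic subunit of the rod phosphodiesterase, went from -5.30, -4.50 and -4.27 at DD16 to 2.64, 2.19 and 3.05 at DD23 (7.32, SE 1.25, adjusted p = 0.00661), the DD16 signal being above background on 2 arrays. Rcvrn, the calcium sensor recoverin, was above background on no DD16 array and reached 1.03, 0.76 and 1.98, at least 60.2-fold higher. Here and below "at least" sets the DD23 mean against the dimmest signal still well above background on each DD16 array. Pde6a, the partner of Pde6b, was at least 13.4-fold higher by the same reckoning. Pde6g, the inhibitory subunit, rose 40.0-fold (5.32, SE 0.25). Of the 20 rod cascade genes listed, 17 were tested, 14 rose and none fell, with a median of 2.55, or 2.36 with dim members at their bound. Gnat1, Slc24a1 and Gucy2f were below the filter of 3 arrays above background. Of the 10 members that could be tested on probes above background on all 6 arrays, 8 rose, so part of the count rests on genes that were dim at DD16.

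Cone genes rose as well. Opn1sw, the short-wavelength cone opsin, was measured at -2.01, -1.59 and -1.89 at DD16 and at 4.44, 3.69 and 4.84 at DD23, a 71.1-fold rise (6.15, SE 0.41, adjusted p = 0.000752; probe on mm9 chromosome 6, 29327438 to 29327497). Arr3, cone arrestin, rose 45.0-fold (5.49, SE 0.28), although its 3 probes gave between 3.05 and 5.49. Pde6h (4.35), Gnat2 (3.22), Gngt2 (3.05), Gnb3 (2.79) and Cngb3 (2.58), the phosphodiesterase, transducin and channel subunits of cones, followed. Of 11 cone genes tested 9 rose and none fell, with a median of 2.79, and Opn1mw was below the filter. Cnga3 (-0.12, SE 0.07), a channel subunit whose other probe gave 3.06, and Kcnv2 (0.14, SE 0.21) did not pass. Probes of a gene did not always read alike: the brightest probe of the rod channel gene Cnga1 gave 0.14 and its other probe 4.59, and the 3 probes of Cngb1 gave 0.58 to 8.11. The level of such a gene therefore depends on the probe chosen.

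Genes of the outer segment, the stack of discs that holds the visual pigment, rose in 17 of 18 tested, with a median of 2.51. Rom1 and Prph2, the tetraspanins that shape the disc rim, rose 36.9-fold and 20.8-fold; Rom1 went from -0.09, 0.22 and 0.09 to 5.29, 4.90 and 5.64. Rp1, a microtubule protein of the axoneme, rose by 5.01 (SE 0.35) and Tulp1, which carries cargo into the outer segment, by 3.07 (SE 0.33). Impg1 of the surrounding matrix had a difference of -0.06 (SE 0.09) with its brightest probe and 2.99 with its other probe. In the connecting cilium and intraflagellar transport list 21 of 36 rose and none fell, with a median of 0.53. Arl6, a small GTPase that recruits the BBSome coat, rose 3.62-fold (1.86, SE 0.09), and Rpgrip1 (1.60), Unc119 (1.54) and Bbs5 (1.52) came next. Of 14 motile cilium genes 2 rose and 3 fell (14.3% and 21.4%, near the 19.3% and 21.9% of all genes). The difference between the cilium lists was not tested.

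To set sequence beside these rises, promoters of the photoreceptor genes that rose were searched for TAATCC, the core read by the homeodomain proteins OTX2 and CRX, on either strand and from 250 bases before to 50 bases after the start. Of 40 genes that rose in the rod, cone and outer segment lists, 28 had a promoter in the RefSeq table of build GRCm38.p6, and 10 of their 32 promoters (31.2%) held the core, against 7.06% of all 32851 promoters. The last 140 bases before the start are printed 5′ to 3′ on the strand of the gene for 3 genes that hold it close to the start, with the core or its complement GGATTA in capitals.
Gnat2, chr3:108092926-108093065, plus strand: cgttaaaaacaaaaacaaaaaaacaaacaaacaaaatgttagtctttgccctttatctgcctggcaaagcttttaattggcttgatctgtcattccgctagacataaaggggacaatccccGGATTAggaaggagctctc
Gucy2e, chr11:69237023-69237162, minus strand: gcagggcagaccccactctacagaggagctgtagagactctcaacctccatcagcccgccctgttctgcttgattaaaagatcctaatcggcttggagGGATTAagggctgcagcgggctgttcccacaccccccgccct
Pcare, chr17:71752906-71753045, minus strand: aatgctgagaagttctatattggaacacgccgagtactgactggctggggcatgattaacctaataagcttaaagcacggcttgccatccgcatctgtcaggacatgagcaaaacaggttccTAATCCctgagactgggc
Gnat2, the cone transducin subunit, rose by 3.22 (SE 0.19). Gucy2e, the guanylate cyclase that restores cyclic GMP, was above background at DD23 only and at least 2.51-fold higher. Pcare, an actin regulator of new discs, rose by 2.80 (SE 0.20). A match is a description of the letters and not a measured binding site.

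Synapse genes rose in both the ribbon form used by photoreceptors and bipolar cells and the conventional form used by amacrine and ganglion cells. In the ribbon list 13 of 20 tested rose and 1 fell, with a median of 1.07. Lrit1, a membrane protein of photoreceptor terminals, went from -1.69, -1.60 and -1.86 to 2.54, 2.23 and 2.90, a 19.3-fold rise. Cacna2d4 (2.20), a subunit of the terminal's calcium channel, Egflam (2.15), the matrix protein pikachurin, and Cplx3 (1.76), a complexin of ribbon synapses, rose by less. Dag1, the dystroglycan that Egflam binds, was the 1 that fell (-0.32, SE 0.08), and it did not pass without the WT array at DD23, the B4KO array at DD16 or either Isl1KO array of these days (-0.26 to -0.34). Slc17a7, the vesicular glutamate transporter, gave 1.63 (SE 0.62, adjusted p = 0.0808) and did not pass, though each line had a higher level at DD23; without the DD10 array of WT or of Isl1KO it did. Conventional vesicle and release genes rose in 18 of 23 and fell in none, with a median of 1.07. Doc2b, a calcium sensor of release, went from 1.12, 1.21 and 1.16 to 3.11, 2.93 and 3.35. Slc32a1, the vesicular transporter of GABA and glycine, rose 3.48-fold, Rph3a by 1.72 and Syp by 1.53.

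Receptors for glutamate, GABA and glycine were higher in 16 of 25 tested and lower in 1, Gabrr2 (-0.50), with a median of 0.74. Glra2, a glycine receptor subunit, was above background at DD23 only and at least 3.54-fold higher; Gria4 (1.84), an AMPA receptor subunit, and Grm8 (1.62), a group III metabotropic receptor, rose too. The count was 10 without the WT array at DD23 and 7 within the slide of WT and Isl1KO. Among pump and potassium channel genes 9 of 21 rose and 2 fell (42.9% and 9.52%, against 19.3% and 21.9% of all genes). The glial and neuronal sodium pump subunit Atp1b2 rose 3.51-fold, while Atp1b3, another subunit of the pump, fell by 0.78. The 2 falls became 1 without either WT array or either Isl1KO array of these days.

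More bipolar genes rose than fell over the 3 lines, of which the 2 knockouts were meant to have fewer bipolar cells. Of 14 rod and ON bipolar genes tested 9 rose and 3 fell, with a median of 0.85. These were 64.3% and 21.4%, against 19.3% and 21.9% of all genes, so the share that fell was near that of all genes. Grm6, Nyx and Vsx1 were below the filter. Gng13, the G protein subunit that couples the glutamate receptor of ON bipolar cells, went from -0.21, 0.12 and -0.28 to 2.64, 2.95 and 2.99, a 7.93-fold rise. Its B4KO and Isl1KO levels lay above WT at DD23, unlike those of the list as a whole, whose median gene in WT lay 0.35 above the mean of the other lines, against -0.13 in B4KO and -0.08 in Isl1KO. Median steps of the list were 1.16, 0.74 and 0.73 in WT, B4KO and Isl1KO, with no test of the difference. Rgs11, which speeds that G protein's shutoff, rose by 2.21 (SE 0.14), and Pcp2 and Prkca, a modulator and a kinase used as rod bipolar markers, by 1.44 (SE 0.32) and 1.36 (SE 0.17). Car8 was above background on no DD16 array and at least 2.22-fold higher. The 3 that fell were Isl1, Bhlhe23 and Trpm1 (-1.36, SE 0.25), the channel gene of ON bipolar cells that pigment cells also express; its 8 probes gave -2.07 to 0.81. In the pigment cell list 4 of 14 fell (28.6%), Trpm1 and Pmel (-1.60) among them. In the list shared with OFF bipolar cells 8 of 16 rose and 2 fell (50% and 12.5%). Cabp2, a calcium-binding protein, was at least 2.87-fold higher and Lrtm1 at least 2.66-fold, while Fezf2, a zinc finger factor, fell by 1.39 (SE 0.32), a call lost without the WT array at DD23 (-1.07) or the Isl1KO array at DD16 (-1.24). Falls were fewer on leaving out 1 array. The 3 in the ON list became 1 without the WT array at DD16, the B4KO array at DD23 or the Isl1KO array at either day. The 2 in the shared list became 1 without either WT array or the DD23 array of B4KO or Isl1KO, and 0 without the Isl1KO array at DD16. Pcp2 also lost its call without the WT array at DD16, the B4KO array at DD23 or either Isl1KO array (1.18 to 1.44).

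Genes of inner retinal neurons changed in mixed directions, as did all genes, of which 19.3% rose and 21.9% fell. Among amacrine genes 7 of 22 rose (31.8%) and 6 fell (27.3%). The 6 became 2 without the WT array at DD16 or the Isl1KO array at DD16 or DD23. They became 3 without the DD23 array of WT or B4KO or the DD10 array of Isl1KO. Tfap2a and Tfap2b, factors of differentiated amacrine cells, rose 5.83-fold and 4.60-fold; Tfap2a went from -0.58, -0.77 and -0.46 to 2.08, 1.38 and 2.36. Calb2 (2.19) and Gad2 (1.85) also rose, whereas Ebf3, a factor of some amacrine and ganglion cells, fell by 1.15 (SE 0.12). Ptf1a, which starts amacrine and horizontal fate, fell by 0.99 (SE 0.30), a call lost on leaving out any 1 of 6 arrays, the exceptions being the DD10 arrays of WT and B4KO and the DD16 array of B4KO. Gad1 gave -0.22 (SE 0.06) with its brightest probe and up to 3.04 with another, so its direction is not settled, and its call was lost without any 1 of the 9 arrays. Of 8 horizontal cell genes 2 rose and 2 fell (25% each, near the shares of all genes), Prox1 among the latter (-0.63, SE 0.19). The 2 falls became 1 without either WT array or either Isl1KO array of DD16 and DD23, and 5 without the B4KO array at DD10. Prox1 lost its call without those 4 arrays, the WT array at DD10 or the B4KO array at DD23. Horizontal cell falls also numbered 4 under another background correction, another variance model or the filter on all 6 arrays. They numbered 4 within the slide of WT and Isl1KO and 5 in the paired fit on the 6 arrays alone. The nearness of their share to that of all genes thus depended on the processing.

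Ganglion cell genes were mostly lower, 10 of 19 tested having fallen and 4 risen, with a median of -0.88. These were 52.6% and 21.1%, against 21.9% and 19.3% of all genes, so the share that rose was near that of all genes. Atoh7, the proneural factor that opens ganglion cell fate, showed the largest fall among genes above background at both days, from 5.18, 5.08 and 5.28 at DD16 to 0.54, 1.22 and 0.22 at DD23 (-4.53, SE 0.39, 23.04-fold, adjusted p = 0.00106; probe on mm9 chromosome 10, 62563489 to 62563548). Pou4f2, which acts after it, fell 7.17-fold (-2.84, SE 0.57) and Sncg, a synuclein of ganglion cells, 4.94-fold (-2.30, SE 0.39). Nefh, the heavy neurofilament of mature axons, and Thy1 rose by 2.54 (SE 0.24) and 2.23 (SE 0.40). The count of 10 falls was 5 within the slide of WT and Isl1KO, and the 4 rises became 2 without either WT array or either Isl1KO array of DD16 and DD23. Pou4f2 did not pass without the WT array at DD16 (-2.66).

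Mueller glia genes moved both ways. Of 19 tested 7 rose and 5 fell (36.8% and 26.3%, against 19.3% and 21.9% of all genes). Rlbp1, the retinaldehyde-binding protein of glia, went from -1.91, -1.69 and -2.0 to 0.29, 0.32 and 0.75, a 4.98-fold rise, and Apoe rose 2.28-fold. Crym (4.07, SE 0.26) and Prss56 (4.18, SE 0.40) rose more; Crym is also made outside glia. Hes1, a Notch effector of glia and progenitors, fell 5.30-fold (-2.40, SE 0.20), and Dkk3 (-1.22) and Vim (-0.57) fell less, Vim losing its call without the WT or the Isl1KO array of either day (-0.47 to -0.55). Glul (-0.18, SE 0.10) and Aqp4 (-0.27, SE 0.10), standard glial markers, did not pass, and another Aqp4 probe gave 1.77. The count of 5 falls was 2 without the WT array at DD16 or either Isl1KO array, and 3 without the WT array at DD23.

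Progenitor genes fell together. Of 18 tested 14 fell and none rose, with a median of -1.39. Fgf15, a growth factor gene of retinal progenitors, went from 3.47, 3.35 and 3.92 to -0.59, 0.30 and -0.11, a 13.1-fold fall (-3.71, SE 0.24, adjusted p = 0.000735). Sfrp2, a secreted Wnt antagonist, fell 9.01-fold, Ccnd1, the main D cyclin of the retina, 5.53-fold, and Cdca7 4.61-fold. Rax (-0.28, SE 0.27), Six3 (-0.36, SE 0.26) and Six6 (-0.42, SE 0.26), eye field factors that differentiated cells also keep, did not pass. In a list that holds factors of early and of late progenitors together, 10 of 19 fell and 3 rose. These were 52.6% and 15.8%, against 21.9% and 19.3% of all genes. Hmga2 (-2.63, SE 0.19), Pou2f2 (-2.09, SE 0.27), Lin28b (-1.69, SE 0.21) and Igf2bp1 (-1.45, SE 0.09), a chromatin protein, a factor of early-born neurons and 2 RNA-binding proteins of early progenitors, led the falls. Casz1, a late factor, rose by 0.80 (SE 0.12) with the brightest of its 6 probes, which ranged from -0.72 to 1.25, while Nfia, Nfib and Nfix, tied to late progenitors and glia, gave 0.19 (SE 0.30), 0.09 (SE 0.25) and 0.40 (SE 0.28), short of the threshold.

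DNA replication and mitosis genes fell almost without exception. Of 36 DNA replication genes 35 fell (97.2%), and of 32 mitosis and kinetochore genes 32 fell, against 21.9% of all genes, with medians of -1.26 and -1.40. Mcm5, a subunit of the replicative helicase, went from 1.92, 1.92 and 1.85 to 0.07, 0.34 and -0.85, a 4.11-fold fall (-2.04, SE 0.28, adjusted p = 0.00351). Orc1, the origin recognition subunit, fell by 2.22 (SE 0.31), with 1 array above background at DD23, and Mcm3 and Uhrf1 had differences of -2.03 (SE 0.21) and -2.0 (SE 0.23). Ttk, the spindle checkpoint kinase, fell 3.70-fold, Cdc20, the activator of anaphase, 3.21-fold, Ccnb1, the mitotic cyclin, 3.18-fold, and Top2a, the topoisomerase of chromosome separation, 3.13-fold. Cyclins, kinases and E2F factors of G1 fell in 15 of 18, with Cdk6 (0.69, SE 0.11) the 1 that rose. Among inhibitors and other exit genes 3 of 16 rose and 6 fell (18.8% and 37.5%, against 19.3% and 21.9% of all genes). Cdkn1c, an imprinted inhibitor of cyclin-dependent kinases, fell by 1.04 (SE 0.22), with levels of -1.30, -0.85 and 5.44 at DD16 and -2.31, -1.91 and 4.38 at DD23. This call was lost without the DD23 array of WT or Isl1KO or the DD16 array of B4KO (-0.88 to -1.03).

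Promoters of these genes were searched in the same window for E2F forms (TTTCCCGC, TTTGGCGC and TTTCGCGC), for TTTGAA, the core of the CHR element of late cell cycle genes, and for the CCAAT box, each on either strand. E2F forms were in 13 of 34 promoters (38.2%) of 29 replication genes and in 3.70% of the mitosis promoters, against 1.84% of all promoters. The CHR core was in 20 of 27 promoters (74.1%) of 26 mitosis genes and in 8.82% of replication promoters, against 17.9% of all. The CCAAT box was in 77.8% and 55.9%, against 37.4%. The last 140 bases before the start are shown for 2 genes of each list that hold the elements there, with E2F forms in capitals in the first pair. In the second pair the capitals mark TTTGAA or its complement TTCAAA, and the CCAAT box or its complement ATTGG.
Orc1, chr4:108579314-108579453, plus strand: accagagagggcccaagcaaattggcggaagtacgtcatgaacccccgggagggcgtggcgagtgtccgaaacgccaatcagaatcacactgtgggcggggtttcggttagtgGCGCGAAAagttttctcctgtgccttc
Mcm6, chr1:128359706-128359845, minus strand: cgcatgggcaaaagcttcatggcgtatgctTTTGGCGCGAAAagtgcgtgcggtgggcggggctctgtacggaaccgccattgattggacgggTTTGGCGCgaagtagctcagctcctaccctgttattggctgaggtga
Cdc20, chr4:118437344-118437483, minus strand: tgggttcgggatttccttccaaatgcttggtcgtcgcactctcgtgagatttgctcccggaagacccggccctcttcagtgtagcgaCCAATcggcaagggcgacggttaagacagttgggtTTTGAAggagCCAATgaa
Top2a, chr11:99024190-99024329, minus strand: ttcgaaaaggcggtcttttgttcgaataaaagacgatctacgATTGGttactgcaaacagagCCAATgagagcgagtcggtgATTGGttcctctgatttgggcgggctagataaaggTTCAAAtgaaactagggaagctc
In the first block of Mcm6 the forms TTTGGCGC and TTTCGCGC overlap on opposite strands. Mcm6, a helicase subunit, fell by 1.66 (SE 0.19), from 4.50, 4.75 and 4.47 to 2.97, 3.46 and 2.31.

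Genes of the progenitor BAF complex, core splicing and ribosome biogenesis were lower as well. All 5 subunits listed for the progenitor form of the BAF remodelling complex fell, Phf10 (-0.76, SE 0.07), Dpf2 (-0.72, SE 0.11), Actl6a (-0.68, SE 0.07), Smarcc1 (-0.62, SE 0.07) and Ss18 (-0.53, SE 0.10). Of 6 subunits of the neuronal form, which takes their place in postmitotic neurons, 1 rose, Actl6b (0.89, SE 0.19), and Ss18l1 (0.21, SE 0.12), Dpf1 (-0.30, SE 0.16) and Dpf3 (-0.22, SE 0.24) did not pass. Actl6b did not pass without the Isl1KO array at DD23, and probes of Actl6a ranged from -0.68 to 0.30. Core splicing factors fell in 22 of 25 (median -0.58) and ribosome biogenesis genes in 22 of 26 (median -0.64), led by Srsf3 (-1.01, SE 0.09) and by Gnl3 (-0.94, SE 0.11). Neural splicing regulators fell in 4 of 23 and rose in 5 (17.4% and 21.7%), near the shares of all genes (21.9% and 19.3%). Among them Srrm4, which directs neuronal microexons, rose by 0.93 (SE 0.15) and Celf3 by 0.93 (SE 0.17). Ptbp1, the repressor of neuronal exons, fell by 0.95 (SE 0.11).

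Cholesterol synthesis genes fell in 18 of 22 with a median of -0.77, among them Msmo1 (-1.17), Hmgcs1 (-1.13) and Sqle (-1.07), enzymes of the pathway. In the fatty acid list 8 of 20 rose and 9 fell (40% and 45%, against 19.3% and 21.9% of all genes). Fabp12, a fatty acid-binding protein of the retina, rose 16.1-fold (4.01, SE 0.36), and Elovl2 (2.28, SE 0.16) and Elovl4 (0.92, SE 0.12), which lengthen polyunsaturated and very long chain fatty acids, rose, while Mfsd2a (-1.85, SE 0.22), a transporter of docosahexaenoic acid, and Scd1 (-1.53, SE 0.18), a desaturase, fell.

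Falls outnumbered rises in the retinoic acid, Wnt, FGF, Hedgehog and Notch lists, pathways that pattern the early eye. Over all genes 21.9% fell and 19.3% rose. The share that fell was 72.7% for Wnt, 50% for FGF, 46.2% for Hedgehog and 45.5% for retinoic acid genes. The Notch list was nearer to all genes, with 31.8% lower and 18.2% higher. Cyp26b1 and Cyp26a1, enzymes that break down retinoic acid, fell 21.4-fold and 15.5-fold; Cyp26b1 went from 1.58, 2.99 and 1.64 to -2.67, -2.21 and -2.17. Rarb, a receptor and direct target of retinoic acid, fell 6.06-fold (-2.60, SE 0.08), the synthesis enzymes Aldh1a3 (-1.81, SE 0.39) and Aldh1a1 (-1.64, SE 0.34) fell, and Rxrg rose, so that 5 of 11 genes tested fell and 1 rose. Aldh1a3 did not pass without the Isl1KO array at DD23 (-1.48), nor Aldh1a1 without the WT array at DD16 (-1.40). Wnt ligands, antagonists and targets fell in 16 of 22 and rose in none, or in 1 without the WT array at DD23 (median -1.09, or -0.90 with dim members at their bound), and the 16 were 10 without the Isl1KO array at DD16 or at DD23. Wnt3a was at least 2.77-fold lower, and Rspo1, an R-spondin that boosts Wnt signals, fell by 1.91 (SE 0.32). FGF genes fell in 10 of 20 (6 without the B4KO array at DD16 or the Isl1KO array at DD23), including Fgf3 (-2.52, SE 0.33). Hedgehog genes fell in 6 of 13, including the effector Gli2 (-1.81, SE 0.11). Of 22 Notch genes 4 rose and 7 fell, among them Dll4 (-1.47, SE 0.20) and Rbpj (-1.07, SE 0.12), while Hey2 was at least 1.79-fold higher. The 4 Notch rises became 1 without the WT array at DD16, the B4KO array at DD23 or either Isl1KO array of these days, and 2 without the WT array at DD23, the B4KO array at DD10 or DD16 or the Isl1KO array at DD10.

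Forebrain and cortical hem genes fell in 7 of 12 and rose in none, Dlx2 (-2.01, SE 0.40) and Emx2 (-1.53, SE 0.40) among them, and the 7 became 4 without the Isl1KO array at DD16. Emx2 lost its call without any 1 of the WT or Isl1KO arrays of these days or the B4KO array at DD16 (-1.17 to -1.67). Single genes among the 15 largest falls are known from other tissues. Hoxb9, a patterning gene of the trunk, was at least 14.0-fold lower, Foxf1, a mesodermal factor, fell by 3.59 (SE 0.23), and Twist2, Gata2 and Cryge, of mesenchyme, blood and brain precursors and lens, were at least 3.78-fold, 2.47-fold and 2.69-fold lower. The lists of such tissues did not fall alike. Mesenchyme genes were mixed, with 3 of 17 higher and 6 lower (17.6% and 35.3%, against 19.3% and 21.9% of all genes). Col1a1, a fibrillar collagen, rose by 1.85 (SE 0.34). Of 10 lens genes tested 1 was higher and none lower, and 8 more were below the filter. Of 6 endothelium and blood genes tested 1 was higher and none lower, with 5 below the filter. These small counts changed under some alternatives. The pluripotency markers Pou5f1, Nanog and Dppa5a differed by -0.17 (SE 0.11), -0.13 (SE 0.10) and -0.01 (SE 0.23). Their part in the retinal changes was not tested.

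The lines took this step to unequal extents by value, although no gene passed a test of the difference. For each line the step, DD23 minus DD16 within that line, was compared with the mean step of the other lines by limma over 23594 genes. No gene passed for WT, B4KO or Isl1KO (0% called in each), with 1467, 1300 and 872 genes at an unadjusted p under 0.05 and smallest adjusted p of 0.567, 0.251 and 0.625. These tests had 2 residual degrees of freedom and little power. In simulated arrays the B4KO test recovered 2% of step differences of 2 on the log2 scale and 57% of those of 4. The absence of calls thus does not show that the steps were equal. What follows on the lines is therefore a description of 1 array against 1 array. Across genes, which are not replicates, the steps of WT and B4KO correlated at Pearson's r of 0.71, those of WT and Isl1KO at 0.79 and those of B4KO and Isl1KO at 0.77. The SD of the steps over all genes was 0.79 in WT, 0.70 in B4KO and 0.77 in Isl1KO. Spike-in RNAs give a technical scale: the median step of 8 of them was -0.14 in WT, -0.07 in B4KO and 0.01 in Isl1KO, the dimmest reaching 0.58 in WT.

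B4KO moved least by the median step of the called genes. Among the 4553 genes called higher its median step was 0.62, against 0.74 in WT and 0.73 in Isl1KO, and among the 5170 called lower it was -0.47, against -0.64 and -0.58. Over all genes B4KO had the fewest steps under -1 (876, against 1183 in WT and 1374 in Isl1KO). Steps above 1 were fewest in Isl1KO (1602, against 2150 in WT and 1667 in B4KO). B4KO had the smallest fall of the 3 lines in 64.0% of the genes called lower. Division genes went beyond that share: B4KO fell least in 31 of 32 mitosis genes and 31 of 36 replication genes. Isl1KO fell most in 31 of each, against 39.3% of all genes called lower. Median steps of the mitosis list were -1.31, -0.98 and -1.89 in WT, B4KO and Isl1KO, and those of the replication list -1.23, -1.0 and -1.60. This order of the 3 medians was the same under each of 8 other scalings, variance models, filters and probe summaries. Not all of these could have changed it. The variance model leaves the steps as they are, so its agreement was fixed in advance. Another scale and the deposited value table moved all steps of a line nearly alike and by little.

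In division genes the lines were closer at DD16 than at DD23. At DD16 the median mitosis gene in Isl1KO lay 0.10 above the mean of the other lines and was the highest line in 21 of 32 genes, while in B4KO it lay 0.02 above. At DD23 Isl1KO lay at -0.65 from the others and was the lowest line in 32 of 32 genes, and B4KO lay at 0.64 and was the highest in 30. For replication genes Isl1KO went from -0.07 to -0.48 and B4KO from 0.14 to 0.56, B4KO having been the highest line in 26 of 36 at DD16 and in 32 at DD23. Cdc20 shows the pattern, with 3.78, 3.83 and 3.92 at DD16 and 2.12, 2.60 and 1.77 at DD23. Progenitor genes did likewise on the side of B4KO, which was the highest line in 16 of 18 at DD23 and in 6 at DD16. Over all 23594 genes tested B4KO was the highest line in 9446 at DD16 and 9228 at DD23, and the lowest in 9637 and 9618. Isl1KO was the highest line in 8215 of them at DD16 and the lowest in 6089 at DD23. Cdkn1c, whose levels are given above, was far brighter in Isl1KO than in the other lines at both days, and its part in these values was not tested. B4KO cannot be told apart from its slide, whereas WT and Isl1KO shared theirs.

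**Figure D2:**
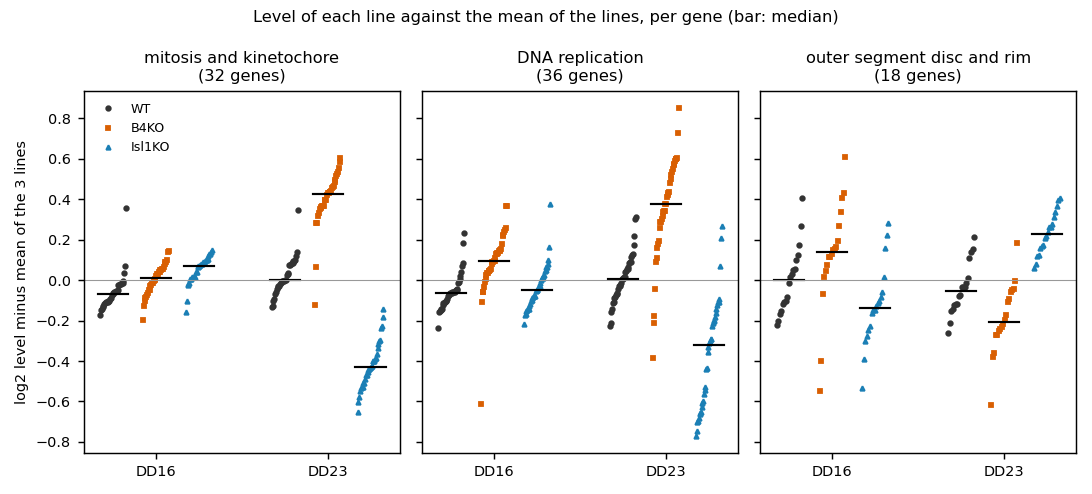
Level of each gene minus the mean of the 3 lines at that day (y axis, log2) for the mitosis, DNA replication and outer segment lists, at DD16 and DD23, with 1 point per gene and line and a bar at the median of a line. The mitosis genes of the lines overlap at DD16, and at DD23 B4KO lies above and Isl1KO below WT.

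Outer segment genes showed the reverse order. They had median steps of 2.46, 2.14 and 2.90, with Isl1KO rising most in 16 of 18 and B4KO least in 15, against 47.2% and 49.3% of all genes called higher. At DD16 Isl1KO was the lowest line in 12 of the 18 and B4KO the highest in 12. At DD23 Isl1KO was the highest in 15 and B4KO the lowest in 11, so the lines changed places. Over all 23594 genes tested these counts were 7884 and 9446 at DD16, and 6869 and 9618 at DD23. Isl1KO also had the largest step in 9 of 11 cone genes and 12 of 16 photoreceptor factors. In the rod cascade it had the largest step in 8 of 17 genes and WT in 7, with medians of 2.38, 2.06 and 2.90, and over the 10 genes above background on all 6 arrays the medians were 2.30, 1.77 and 2.27, so Isl1KO did not lead there. Nr2e3 was among the 10 largest step differences of B4KO, with steps of 6.58, 4.62 and 6.57. Glutamate, GABA and glycine receptor genes had another order, with median steps of 1.12, 0.62 and 0.54. The largest step was in WT in 18 of 25, against 32.7% of all genes and 34.7% of those called higher. Ribosomal protein genes, of which 28 of 30 fell, had their lowest step in WT in 30 of 30, against 49.1% of all genes called lower. Their median steps were -0.77, -0.38 and -0.47. After quantile normalization the medians were -0.30, -0.17 and -0.15 and 11 of 30 fell. The share of spots above background also differed, at 57.3% and 65.6% in WT, 58.2% and 60.5% in B4KO and 65.2% and 67.8% in Isl1KO at DD16 and DD23, and its part in these steps was not tested.

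**Figure D3:**
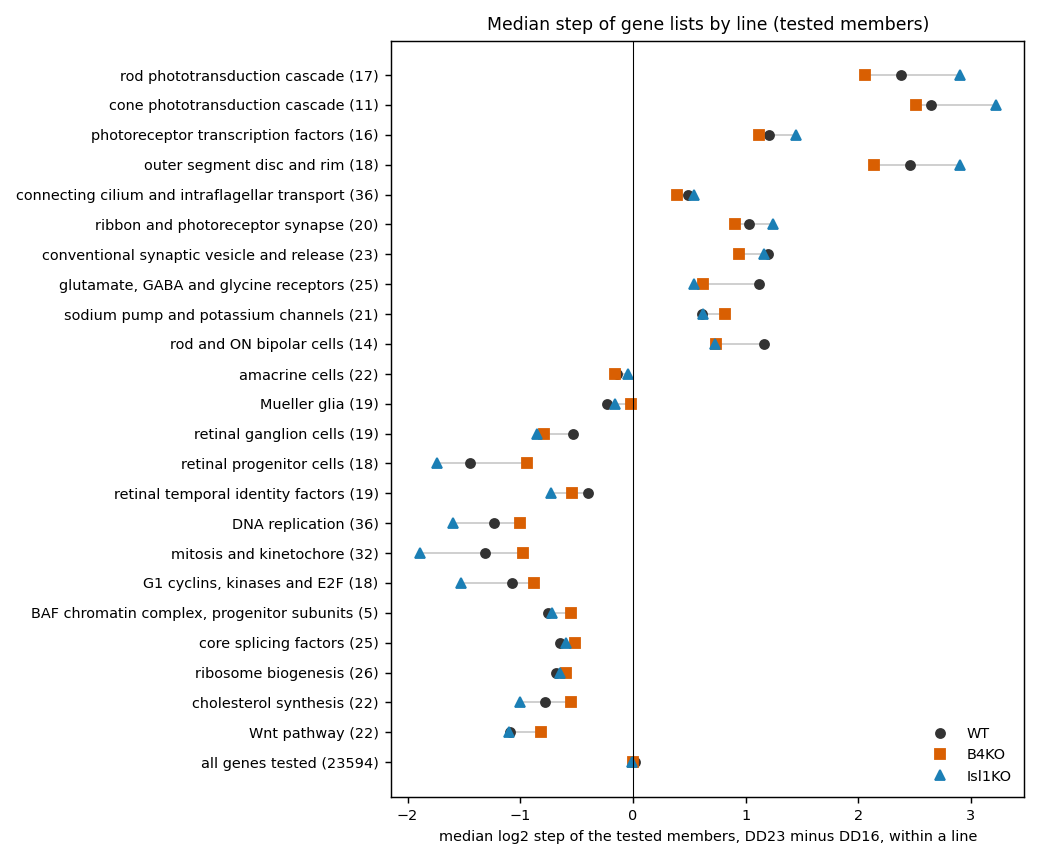
Median log2 step from DD16 to DD23 (x axis) of the tested members of 23 gene lists and of all genes, for WT (circles), B4KO (squares) and Isl1KO (triangles). For outer segment genes the medians are 2.46, 2.14 and 2.90, for mitosis genes -1.31, -0.98 and -1.89, and for all genes they lie near 0.

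Cholinergic genes of starburst amacrine cells, which need Isl1, gave the largest single departure of Isl1KO. Slc18a3, the vesicular acetylcholine transporter, went from -3.49, -4.22 and -3.40 to 0.01, -0.12 and -3.81, so that the steps were 3.50, 4.10 and -0.41 (probe on mm9 chromosome 14, 33275627 to 33275686). The step of Isl1KO minus the mean of the others was -4.22 (SE 0.38), which did not pass over all genes. Chat, the enzyme that makes acetylcholine, had steps of 2.0, 1.36 and 0.50, and Megf10, a mosaic spacing receptor of starburst cells, 2.08, 2.27 and 0.80. Of the 9 starburst genes 1 rose and 4 fell over the lines (11.1% and 44.4%, against 19.3% and 21.9% of all genes). Isl1KO had the lowest step in 7 of the 9, against 30.7% of all genes. Median steps of the 9 genes were -0.41, 0.25 and -0.41 in WT, B4KO and Isl1KO, equal in WT and Isl1KO. Over the 6 genes above background on all 6 arrays they were -0.59, -0.62 and -1.09, lowest in Isl1KO. The order of the medians thus depended on the dim members. The falls became 2 without the WT array at DD16 or either Isl1KO array. Without the Isl1KO array at DD23, 2 rose and Slc18a3 passed (3.69). Thy1 of ganglion cells was also lowest in Isl1KO at DD23, with levels of 1.79 and 1.29 in WT and B4KO and -0.32 in Isl1KO.

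Hoxb6, Hoxb7 and Hoxb8 were also among the largest step differences, which is why they are named here. Hoxb8 started at 1.01, 1.41 and 0.58 and ended at -0.25, -1.66 and -4.34 (probe on mm9 chromosome 11, 96146576 to 96146635), so WT kept most and Isl1KO least. All 3 lines gave a lower level at DD23, and the fall over the lines (-3.09, SE 0.69) lost its call without the DD16 array of B4KO or Isl1KO, within the slide of WT and Isl1KO and on 6 arrays with no line term. Hoxb7 had steps of -0.46, -1.90 and -3.99 and Hoxb6 of -1.62, -3.51 and -4.45. Hoxb9, of the same cluster and above background on no DD23 array, had another order, its steps being -3.67, -5.33 and -4.58. Hoxb7 as a fall over the lines (-2.12, SE 0.63) lost its call on leaving out any 1 of 7 arrays, those other than the DD16 and DD23 arrays of WT, and within the slide of WT and Isl1KO, as did Hoxb6 within that slide. Hoxc4, of another cluster, had steps of 0.90, -1.14 and -1.89. Other large differences of WT were those of Frzb, a Wnt antagonist (-1.69, against 1.33 and 1.90), and Ccn1, a matrix protein of growth signalling (-2.87, against 0.12 and 0.43). In B4KO, Meg3, an imprinted RNA, had a step of -2.02 against 1.33 and 0.70, and Rccd1 one of 3.86 against 0.03 and 0.41, the latter through a low DD16 level (-4.39, against -0.69 and -0.98). In Isl1KO, Zfp9 had a step of -3.51 against -0.37 and -0.32, from a DD16 level of -0.28 against -3.39 and -3.57. Each of these rests on 1 array at each end.

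**Figure D4:**
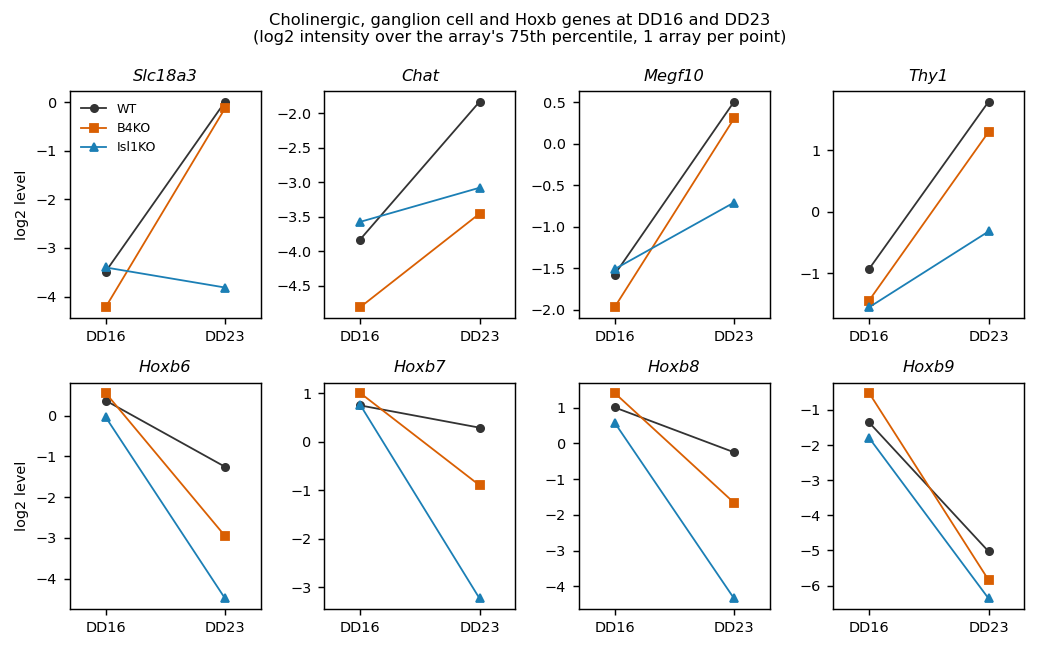
Level of 8 genes at DD16 and DD23 (y axis, log2 intensity over the 75th percentile of the array), with 1 array per point and a line for WT (circles), B4KO (squares) and Isl1KO (triangles). Slc18a3 rises in WT and B4KO and not in Isl1KO, and Hoxb6, Hoxb7 and Hoxb8 end highest in WT and lowest in Isl1KO.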

How the data were processed

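Total RNA was measured on 9 single-colour Agilent arrays, 1 for each of 3 lines at 3 days, and 6 of them (DD16 and DD23) make the comparison. The deposited scanner files hold Cy3 intensity per spot, background-subtracted with Agilent Feature Extraction software (12.0.3.1 in the file headers), with flags for spots well above background. The value table the authors deposited holds a ratio, the processed intensity over 1 constant per array, to within 0.455% for spots above 1. It served as an alternative.

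Values were the log2 of the deposited processed intensity minus log2 of the 75th percentile of the array. Control spots and outlier spots were left out, spots of a probe were averaged, and a gene was read from its brightest probe among probes that passed the background flag on 3 or more of the 9 arrays. Names came through RefSeq accessions for 32994 probes and from the files for 23611. Probe coordinates are mm9 per the file headers. The number of arrays limits the precision.

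An additive line and day model was fitted to all 9 arrays with limma 3.58.1 in R 4.3.3 (data.table package, version 1.17.8), which pairs the days by line and leaves 4 residual degrees of freedom. Each step test added own DD16 and DD23 terms for 1 line. Adjustment was Benjamini-Hochberg over 23594 genes. The scripts were tested on simulated data.

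The comparison and the 58 gene lists were chosen with earlier results of these data known. Genes were named by rule: the targeted genes, the 15 largest rises and falls, the 4 largest called changes of a list, any member of a list of at most 20, the cell type markers, and the 10 largest step differences of each line. Some genes the rule names are not reported here. Ptf1a, Mcm6, Atp1b3, Gabrr2, Dag1, Celf3 and Ptbp1 were chosen after their values were seen. Alternatives were other normalizations, background correction, filters, probe summaries, variance models and samples.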

Additional observations from a re-analysis of the deposited data

How the results depend on the processing

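The counts of 4553 higher and 5170 lower genes stayed within 1.5 times under quantile normalization, another scale, normexp background correction, the deposited value table, other filters, the mean over probes, another variance model, the 6 arrays with line and the slide of WT and Isl1KO. Without the line term on 6 arrays they were 2965 and 3096. Leaving out 1 array gave 3073 to 4437 higher and 3433 to 4900 lower, the lowest without the Isl1KO array at DD23 and at DD16, respectively. The step tests, which had little power, made 0 calls under each alternative that could be run. Of 185 named genes, 168 to 184 kept direction and call under each of 19 alternatives, as did 163 of the 164 that were above background on all 6 arrays. Averaging the probes of a gene reversed Cnga3 (1.47), Impg1 (1.46), Gad1 (1.72) and Aqp4 (0.94). The cause of these changes was not tested, apart from the probes of those 4 genes, which read differently. Within the slide of WT and Isl1KO, Bhlhe23, Otx2, Dag1, Fezf2, Gad1, Thy1, Celf3, Col1a1, Hoxb6, Hoxb7 and Hoxb8 lost their calls, and with no filter on dim probes Isl1, Prdm1, Dag1, Ptf1a, Gad1, Prox1, Emx2 and Hoxb7 did. The days are paired by line in the fit on 9 arrays, and the paired fit on the 6 arrays alone gave 4149 higher and 4488 lower genes. Low signal limits genes above background at 1 day only, for which bounds are given.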

Other observations

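In the stress and immediate early lists, not described above, falls outnumbered rises. The shares that fell were 47.1% and 46.2%, against 21.9% of all genes. Of 17 heat shock and integrated stress genes 8 fell and none rose, with a median of -0.45. Chac1, a glutathione-degrading enzyme, went from 2.52, 2.80 and 2.28 in WT, B4KO and Isl1KO at DD16 to 1.2, 1.34 and 0.64 at DD23 (-1.48, SE 0.10), and the pseudokinase Trib3 (-1.46, SE 0.12), Atf5 (-1.29, SE 0.11) and the asparagine synthetase Asns (-1.2, SE 0.10), all known targets of the amino acid stress factor ATF4, fell as well. Of 13 immediate early genes 6 fell, Fos (-1.61, SE 0.31) and Egr1 (-1.40, SE 0.18) most, and Nr4a1 rose (1.22, SE 0.15). These levels were read from pooled organoids without a handling control.

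Of 19 linker and variant histone and HMG genes 13 fell, among them H2ax (-1.28, SE 0.12), which marks DNA breaks, and Hmgb2 (-1.24, SE 0.12), a chromatin protein of dividing cells, and 2 rose, or 1 without the DD16 array of B4KO or Isl1KO or the DD23 array of Isl1KO. In the polycomb and DNA methylation list 9 of 22 fell, the methyltransferase Ezh2 from 2.75, 2.73 and 2.82 to 1.56, 1.84 and 1.55 (-1.11, SE 0.10) and Dnmt3b by a difference of -1.55 (SE 0.19). In the same list 5 rose, with 2 or 3 rising when the WT array of any day, the B4KO array at DD16 or the Isl1KO array at DD23 was left out. The shares lower and higher were 40.9% and 22.7%, against 21.9% and 19.3% of all genes. Retinoid genes moved in both directions. Rbp3, the carrier between photoreceptors and pigment cells, rose 4.20-fold, from 4.0, 3.68 and 4.04 to 5.86, 5.91 and 6.16, whereas the retinal reductase Dhrs3 fell 5.46-fold. Over the visual cycle list 5 of 14 rose and 2 fell (35.7% and 14.3%, against 19.3% and 21.9% of all genes).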
